A study of Mus musculus with 6 samples.

Results

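The study asked how normal mammary fibroblasts of 2 mouse strains differ at baseline, and here the enzymes and 1 chaperone that hydroxylate, fold and crosslink collagen were followed. The cells were fibroblasts cultured from the mammary fat pad of BALB/c and C57BL/6 mice. The 10 genes were taken by symbol from the deposited count table: the lysyl oxidases Lox, Loxl1, Loxl2 and Loxl3, the lysyl hydroxylases Plod1 and Plod2, the prolyl 4-hydroxylase alpha subunits P4ha1 and P4ha2, the procollagen chaperone Serpinh1 and the transglutaminase Tgm2. All 10 were present among 12023 listed genes and all 10 passed the filter on low counts, which left 8752 genes. Both groups were untreated, healthy females aged 8 to 12 weeks, with 3 replicates for BALB/c and 3 for C57BL/6, and no genotype beyond the strain is given. The cells were cultured for 4 days on plastic coated with rat-tail collagen type I, so a collagen matrix was present in both groups. The design text names a magnetic separation without its target, and whether a replicate is 1 mouse or a pool is not stated in the labels used here. The libraries counted reads at the 3′ ends of polyadenylated RNA, so a count depends little on transcript length.

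Collagen chains are modified in the endoplasmic reticulum before they fold. Prolyl 4-hydroxylases make the hydroxyproline that keeps the triple helix stable, lysyl hydroxylases make the hydroxylysine that carries sugars and enters the mature crosslinks, and Serpinh1 (also called HSP47) holds the folded helix until it leaves for the Golgi. Outside the cell, copper-dependent lysyl oxidases turn lysine and hydroxylysine into aldehydes that link neighbouring collagen or elastin molecules, and transglutaminases join glutamine to lysine. In breast tissue these crosslinks are known to set the stiffness of the stroma.

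Total counts were 1035485 to 2713611 in the BALB/c libraries and 1295349 to 4665896 in the C57BL/6 libraries. Levels are given as CPM, counts per 1000000 counts of the TMM-scaled library, and differences on the log2 scale as BALB/c minus C57BL/6, followed by the standard error. C57BL/6 replicate 1 stood apart, with a mean correlation over genes to the other libraries of 0.779 where the others had 0.870 to 0.910. The libraries also differed in the markers of the labelled cell type. Fibroblast markers, 9 of 10 in the table, summed to 10780, 4133 and 7700 CPM in BALB/c replicates 1, 2 and 3 and to 2342, 11620 and 5484 CPM in C57BL/6 replicates 1, 2 and 3. Luminal epithelial markers, 11 of 12 in the table, summed to 1611, 9845 and 7689 CPM in the BALB/c libraries and to 15810, 2778 and 8605 CPM in the C57BL/6 libraries. Luminal sums were above fibroblast sums in BALB/c replicate 2 and in C57BL/6 replicates 1 and 3, so the cultures labelled as fibroblasts also held RNA of epithelial genes. Single fibroblast markers went both ways in C57BL/6 replicate 1. Among the 6 libraries Vim was lowest there, at 801 CPM, while Pdgfrb was highest there, at 343 CPM. Fap, which encodes a surface protease, was at 0 in that library but did not pass the filter on low counts. In such bulk samples fewer cells of a type and less RNA per cell cannot be told apart.

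The 10 genes spanned most of the range of expression, and the lowest of them lay at the 5.77 percentile of tested genes. Serpinh1 was the most abundant, with a mean of 2150 CPM over the 6 libraries, above 99.3% of tested genes. Lox followed with 446 CPM, then Loxl1 with 322, Tgm2 with 309, Loxl2 with 308 and P4ha2 with 261 CPM. Plod1 had 119 CPM, Plod2 98.0 CPM, Loxl3 24.95 CPM and P4ha1 7.72 CPM. Serpinh1 lay above Lox in 6 of 6 libraries, P4ha2 above Plod1 in 6 of 6, Plod2 above Loxl3 in 6 of 6 and Loxl3 above P4ha1 in 6 of 6. The order of Loxl1, Tgm2, Loxl2 and P4ha2 among themselves was not settled, since each of the first 3 was above the next in only 3 of 6 libraries. Lox exceeded Loxl1 in 5 of 6 and Plod1 exceeded Plod2 in 4 of 6.

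**Figure D1:**
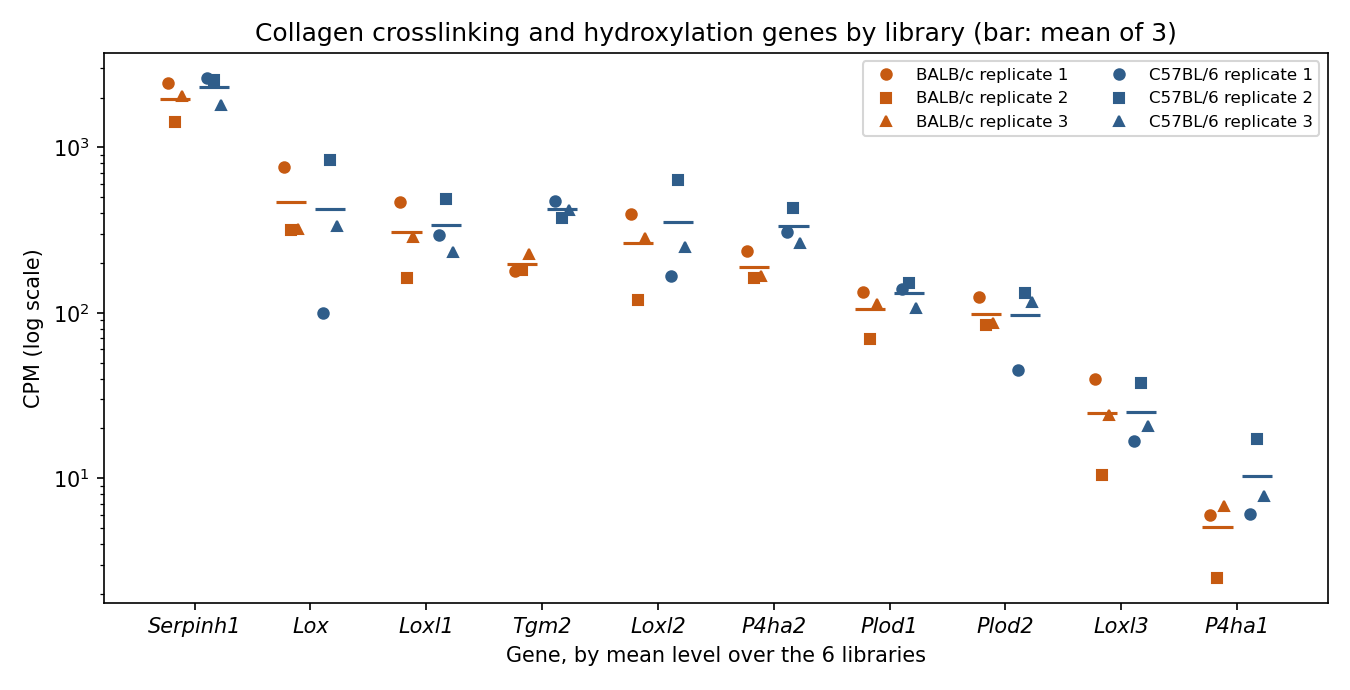
CPM of the 10 genes in each library on a log axis, BALB/c in orange on the left of each gene and C57BL/6 in blue on the right, with a bar at the mean of 3 libraries. Tgm2 and P4ha2 are the genes whose strains do not overlap, with Tgm2 at 179 to 226 CPM in the BALB/c libraries and 375 to 471 CPM in the C57BL/6 libraries.

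Between the strains 0 of the 10 genes passed an adjusted p of 0.05 in edgeR's quasi-likelihood test over all genes, where 0.206% of tested genes did (0.137% lower in BALB/c). At an unadjusted p under 0.05 there were 2, Tgm2 and P4ha2, both lower in BALB/c, against 3.86% of all tested genes (2.54% lower in BALB/c). In these same 2 genes every BALB/c library lay below every C57BL/6 library, which held for 6.22% of tested genes, and in 0 of the 10 did every BALB/c library lie above, which held for 5.15%. DESeq2 called 1 of the 10, Tgm2, where it called 0.811% of genes. In limma-voom 0 of the 10 passed, where 0.0343% of genes did, and with library quality weights 1 passed, Tgm2, where 0.651% did. The log2 difference was below 0 in 8 of the 10, with a median of -0.28, where it was below 0 in 48.9% of all tested genes with a median of 0.01. The count of signs moved with the library left out. It was 10 of 10 without C57BL/6 replicate 1 or without BALB/c replicate 1, with medians of -0.35 and -0.58, where 49.7% and 51.4% of all tested genes were below 0. It was 6 of 10 without BALB/c replicate 2 (median -0.05) and 5 of 10 without C57BL/6 replicate 2 (median 0.04), where 48.2% and 46.9% of all genes were. Without BALB/c replicate 3 it was 8 of 10, and without C57BL/6 replicate 3 it was 8 of the 9 that could be tested. Without C57BL/6 replicate 1, the library that stood apart, 0 of the 10 passed in edgeR, where 0.276% of genes did.

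**Figure D2:**
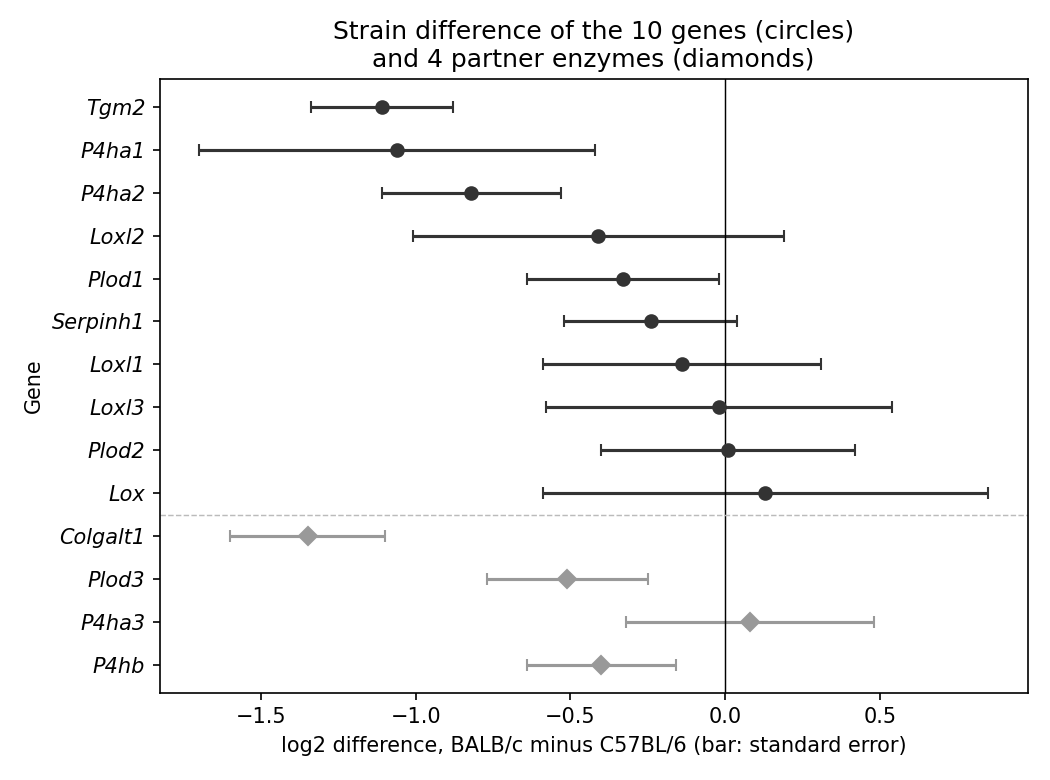
Difference between strains on the log2 scale (BALB/c minus C57BL/6), with bars of 1 standard error, for the 10 genes (circles) and for the partner enzymes Colgalt1, Plod3, P4ha3 and P4hb (diamonds). Tgm2 at -1.11 ± 0.23 and Colgalt1 at -1.35 ± 0.25 lie farthest below 0 relative to their error, while Lox at 0.13 ± 0.72 has the widest error.

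Tgm2 encodes tissue transglutaminase, a calcium-dependent enzyme that crosslinks fibronectin and collagen and is also made by macrophages and endothelium. It lies on GRCm38 chromosome 2, 158116402 to 158146436. Tgm2 was at 179, 182 and 226 CPM in BALB/c replicates 1, 2 and 3 and at 471, 375 and 419.7 CPM in C57BL/6 replicates 1, 2 and 3. The strains did not overlap, and the lowest C57BL/6 library was above the highest BALB/c library by more than the range within BALB/c. Mean levels were 196 ± 26.6 CPM for BALB/c and 422 ± 48.1 CPM for C57BL/6 (SD, n = 3 each). The log2 difference was -1.11 ± 0.23, with an unadjusted p of 0.00159, rank 50 of 8752 genes, and an edgeR adjusted p of 0.278. DESeq2 gave an adjusted p of 0.00125 and limma-voom with library quality weights gave 0.0254, so the call depended on the tool. Its biological coefficient of variation, 25.4%, was the lowest of the 10 genes.

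Markers of macrophages and other leukocytes had estimates of the same sign as Tgm2. All 7 tested of the 10 in the table had a log2 difference below 0, and 0 passed in edgeR, DESeq2 or limma-voom, with or without quality weights. At an unadjusted edgeR p under 0.05 there were 3, against 3.86% of all tested genes (2.54% lower in BALB/c). They were Cd68 with -0.91 ± 0.30, Fcer1g with -1.08 ± 0.38 and C1qa with -1.11 ± 0.44. In these every BALB/c library lay below every C57BL/6 library, which held for 6.22% of tested genes. The 10 summed to 851, 588 and 806 CPM in BALB/c replicates 1, 2 and 3 and to 1392, 772 and 1169 CPM in C57BL/6 replicates 1, 2 and 3. The defining markers Ptprc, the pan-leukocyte phosphatase, and Mrc1 were at 0 in C57BL/6 replicate 1, and Adgre1 was at 0 in BALB/c replicate 3. Ptprc, Mrc1 and Adgre1 did not pass the filter on low counts, so a 0 in them says little. In C57BL/6 replicate 2 the macrophage sum lay below those of BALB/c replicates 1 and 3, but single markers went both ways. Lyz2 was lower there, at 445.5 CPM against 555 and 532 CPM in BALB/c replicates 1 and 3. C1qa was higher, at 147.7 CPM against 130.7 and 96.8 CPM. Endothelial markers summed to 39.7 to 78.4 CPM in the BALB/c libraries and 56.5 to 94.7 CPM in the C57BL/6 libraries, and the part of leukocyte or endothelial RNA in the Tgm2 difference was not tested. Exons of Tgm2 overlap those of Gm20412 and Rprd1b on the opposite strand, and it is not stated whether strand was used in counting. Rprd1b had 9.68 to 19.3 CPM in the BALB/c libraries and 1.53 to 12.9 CPM in the C57BL/6 libraries. The part of reads from the shared exons in the Tgm2 counts was not tested.

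Likeness of pattern over the 6 libraries was measured as the root mean square difference of log2 CPM, each gene centred on its own mean, among 4513 genes. For Tgm2 it was 0.119 with Mrps12, a mitochondrial ribosomal protein gene, which was at 53.4, 69.4 and 80.3 CPM in BALB/c replicates 1, 2 and 3 and at 164, 119 and 153 CPM in C57BL/6 replicates 1, 2 and 3. For Serpinh1, the most abundant gene, the nearest were Ipo4 with 0.0556 and Mea1 with 0.0766.

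The prolyl 4-hydroxylase alpha subunits bind the collagen chain and carry the catalytic site, and each forms a tetramer with the beta subunit P4hb, a protein disulfide isomerase. P4ha2 lies on GRCm38 chromosome 11, 54100095 to 54131665, and P4ha1 on chromosome 10, 59323296 to 59373304. Both are known targets of the hypoxia-inducible factor HIF-1. Their promoters are shown because both genes had estimates lower in BALB/c and yet differ widely in level. They are RefSeq windows on GRCm38.p6 of 250 bases before to 50 bases after the start, on the gene's strand, chr10:59323046-59323345 (+) for P4ha1 and chr11:54100674-54100973 (+) for P4ha2, whose RefSeq start lies inside the GENCODE gene. Capitals mark ACGTG, the core letters of the hypoxia response element, and GGGCGG, an Sp1-type GC box, each read on both strands so that CACGT and CCGCCC count too.
P4ha1: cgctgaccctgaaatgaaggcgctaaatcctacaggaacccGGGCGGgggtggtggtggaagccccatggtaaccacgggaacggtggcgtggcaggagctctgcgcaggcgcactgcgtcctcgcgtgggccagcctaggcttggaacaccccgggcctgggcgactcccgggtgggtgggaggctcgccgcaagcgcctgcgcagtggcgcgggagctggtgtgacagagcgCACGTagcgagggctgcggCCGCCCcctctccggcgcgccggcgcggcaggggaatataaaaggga
P4ha2: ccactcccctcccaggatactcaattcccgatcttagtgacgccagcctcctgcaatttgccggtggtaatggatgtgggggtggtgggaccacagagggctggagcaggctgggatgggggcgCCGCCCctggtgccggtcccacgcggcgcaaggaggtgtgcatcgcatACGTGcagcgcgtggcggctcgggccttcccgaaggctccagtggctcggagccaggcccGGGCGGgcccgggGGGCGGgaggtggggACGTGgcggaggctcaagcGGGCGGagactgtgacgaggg
The P4ha1 window held 1 match of ACGTG and 2 of GGGCGG, and the P4ha2 window held 2 and 4. Over all 32851 windows of this length 19.6% held ACGTG and 35.7% held GGGCGG. G and C made up 70.3% of the P4ha1 window and 70.3% of the P4ha2 window, and the other windows were not matched for this. A match is a description of the letters and not evidence of binding.

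P4ha2 was at 237, 162 and 167 CPM in BALB/c replicates 1, 2 and 3 and at 309, 429 and 263 CPM in C57BL/6 replicates 1, 2 and 3. The strains did not overlap, but BALB/c replicate 1 and C57BL/6 replicate 3 lay close together. Mean levels were 189 ± 41.7 CPM for BALB/c and 334 ± 85.9 CPM for C57BL/6 (SD, n = 3 each). The log2 difference was -0.82 ± 0.29, with an unadjusted p of 0.0224 and an edgeR adjusted p of 0.954. P4ha1 had 9, 7 and 7 counts in the BALB/c libraries and 8, 22 and 38 counts in the C57BL/6 libraries, or 6.00, 2.505 and 6.77 CPM against 6.11, 17.2 and 7.75 CPM. C57BL/6 replicate 2 was high, C57BL/6 replicate 1 lay within the BALB/c range, and the strains overlapped. Its log2 difference of -1.06 ± 0.64 (edgeR adjusted p = 0.954) did not pass, and it was -0.52 without C57BL/6 replicate 2 and -0.68 without BALB/c replicate 2, the highest and the lowest library.

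Among the 3 alpha subunits P4ha2 supplied most of the counts in every library. Its share was 79.2%, 84.5% and 79.7% in the BALB/c libraries, in replicate order, and 89.0%, 86.1% and 87.9% in those of C57BL/6. P4ha3, the third alpha subunit, held 18.8%, 14.2% and 17.1% in the BALB/c libraries and 9.23%, 10.5% and 9.49% in the C57BL/6 libraries. P4ha1 held 1.31% to 3.23% in BALB/c and 1.76% to 3.45% in C57BL/6. The make-up of the family thus did not overlap between the strains for P4ha2 and P4ha3. Since P4ha1 held so little, these shares nearly mirror each other and are not separate results. The exact 95% binomial intervals of the P4ha3 shares ran from 11.3% to 22.7% in BALB/c and from 6.73% to 13.1% in C57BL/6. Such intervals cover counting error only. The mean P4ha3 share was 16.7 ± 2.31% in BALB/c and 9.74 ± 0.671% in C57BL/6 (SD, n = 3 each), a difference of 6.92 percentage points. The exact two-sided permutation p was 0.1 for P4ha2 and for P4ha3, the smallest that 3 against 3 allows, and 0.55 after Benjamini-Hochberg adjustment over 11 shares. These shares do not depend on library scaling, and they were computed after the levels had been seen. As a level, P4ha3 differed by 0.08 ± 0.40 on the log2 scale (edgeR adjusted p = 0.977).

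**Figure D3:**
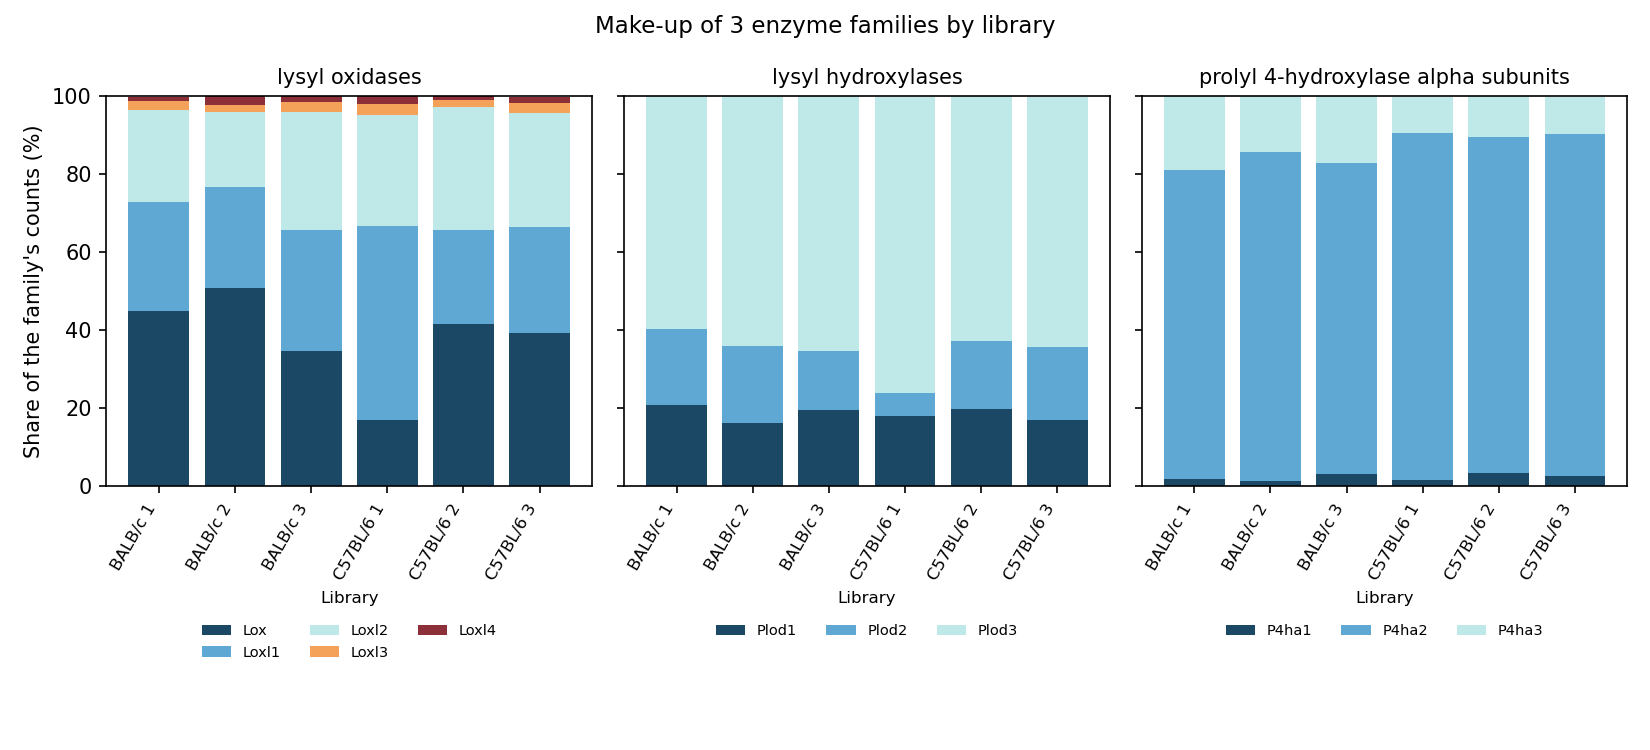
Share of each gene in the counts of its enzyme family, in percent, for each library, BALB/c left and C57BL/6 right. P4ha3 takes 14.2% to 18.8% of alpha subunit counts in BALB/c and 9.23% to 10.5% in C57BL/6, and C57BL/6 replicate 1 differs from the other libraries in its low Lox and Plod2 shares.

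Of 6 tested genes among the other prolyl hydroxylases and their partners, 3 had differences below 0, with a median of -0.05, and 0 passed in any of the 4 tools or had an unadjusted edgeR p under 0.05. P4hb, itself among the most abundant genes, was at 1237 to 1513 CPM in the BALB/c libraries and 1487 to 2228 CPM in the C57BL/6 libraries, which is -0.40 ± 0.24 on the log2 scale (edgeR adjusted p = 0.954). P3h1, a prolyl 3-hydroxylase, had -0.42 ± 0.36.

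The lysyl hydroxylases act on different lysines. Plod1 modifies lysines of the helix, Plod2 those of the telopeptides at the chain ends, and Plod3 also adds sugars to hydroxylysine. Plod2, on GRCm38 chromosome 9, 92542223 to 92608428, was at 124, 84.1 and 87.1 CPM in BALB/c replicates 1, 2 and 3 and at 45.1, 132 and 115.5 CPM in C57BL/6 replicates 1, 2 and 3. The strains overlapped and C57BL/6 replicate 1 was the lowest library. The estimate was 0.01 ± 0.41 with all libraries (edgeR adjusted p = 0.998) and -0.34 ± 0.22 without C57BL/6 replicate 1 (edgeR adjusted p = 0.999). Plod1, on chromosome 4, 147909753 to 147936767, was steadier, at 133, 69.4 and 113 CPM in the BALB/c libraries and 139, 151 and 106 CPM in the C57BL/6 libraries. The strains overlapped there too, at -0.33 ± 0.31 on the log2 scale (edgeR adjusted p = 0.954).

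The ratio of Plod2 to Plod1 counts within a library was 0.930, 1.21 and 0.770 in BALB/c and 0.326, 0.876 and 1.09 in C57BL/6. C57BL/6 replicate 1 was the library farthest from equal amounts, and without it the log2 difference between strains turned to -0.03. As means of log2 ratios these are -0.07 ± 0.33 for BALB/c and -0.56 ± 0.93 for C57BL/6 (SD), a difference of 0.49 with an exact two-sided permutation p of 0.6 (0.933 adjusted over 7 ratios). Plod3 held most of the family's counts, 59.5% to 65.2% in BALB/c and 62.7% to 76.0% in C57BL/6.

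Of the 4 tested genes of the list around lysyl hydroxylation, 3 had differences below 0, with a median of -0.58. In edgeR 0 passed and 1, Colgalt1, had an unadjusted p under 0.05, against 3.86% of all tested genes (2.54% lower in BALB/c). Colgalt1, which adds galactose to hydroxylysine, was at 199.4, 191.8 and 206 CPM in BALB/c replicates 1, 2 and 3 and at 648.5, 427 and 444 CPM in C57BL/6 replicates 1, 2 and 3. The strains did not overlap, and the BALB/c libraries lay within a narrow range. The log2 difference was -1.35 ± 0.25, larger than that of any of the 10 genes, with an edgeR adjusted p of 0.198. It passed with DESeq2 (adjusted p = 4.79e-04) and with quality weights in limma-voom (adjusted p = 0.00976), and had an edgeR adjusted p of 0.057 without C57BL/6 replicate 1. Its last 500 nt share 495 nt with Unc13a on the opposite strand, so its count is uncertain where strand was not used. Plod3 was lower in BALB/c without overlap, at -0.51 ± 0.26 (edgeR adjusted p = 0.954), and Fkbp10, a foldase that works with Plod2, had -0.64 ± 0.33 with overlap.

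Serpinh1 lies on GRCm38 chromosome 7, 99345376 to 99353239. It was at 2457, 1426 and 2039 CPM in BALB/c replicates 1, 2 and 3 and at 2627, 2550 and 1799 CPM in C57BL/6 replicates 1, 2 and 3. The strains overlapped, and the highest library was 1.84 times the lowest, the narrowest range of the 10 genes. The estimate was -0.24 ± 0.28 (edgeR adjusted p = 0.954). Relative to the summed counts of Col1a1, Col1a2 and Col3a1, its main clients among the fibrillar collagens, Serpinh1 was at 0.460, 1.32 and 0.630 in BALB/c and at 3.14, 0.388 and 0.889 in C57BL/6. The highest ratio of each strain was in its library of the lowest collagen level, and the collagens summed to 5342, 1079 and 3235 CPM in the BALB/c libraries and to 836, 6568 and 2024 CPM in the C57BL/6 libraries. The strains did not separate in this ratio (exact two-sided permutation p = 0.7).

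The pair of members most alike over the libraries was Plod1 and Serpinh1, with a root mean square difference of 0.0945 on the log2 scale. Their promoters are shown for that reason, from the same RefSeq table and with the same letters in capitals. The Plod1 window is chr4:147936727-147937026 (-) and the Serpinh1 window is chr7:99353190-99353489 (-), each written on the gene's strand.
Plod1: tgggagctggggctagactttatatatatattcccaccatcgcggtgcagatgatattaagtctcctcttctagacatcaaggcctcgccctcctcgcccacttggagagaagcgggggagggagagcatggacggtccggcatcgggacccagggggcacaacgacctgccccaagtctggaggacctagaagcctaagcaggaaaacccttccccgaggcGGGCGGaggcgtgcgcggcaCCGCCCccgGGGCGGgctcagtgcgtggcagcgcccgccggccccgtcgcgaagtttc
Serpinh1: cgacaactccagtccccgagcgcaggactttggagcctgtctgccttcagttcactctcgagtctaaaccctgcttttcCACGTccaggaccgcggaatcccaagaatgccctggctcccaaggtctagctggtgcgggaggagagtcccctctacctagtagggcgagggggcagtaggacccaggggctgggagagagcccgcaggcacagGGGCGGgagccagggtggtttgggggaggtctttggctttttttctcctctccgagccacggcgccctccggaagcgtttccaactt
The Plod1 window held 3 matches of GGGCGG and 0 of ACGTG, and the Serpinh1 window held 1 of each. G and C made up 64.3% of the Plod1 window and 62.3% of the Serpinh1 window.

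Of 16 tested genes for folding and export of procollagen 7 were below 0, with a median of 0.11, and 0 passed in edgeR, DESeq2 or limma-voom or had an unadjusted edgeR p under 0.05. Pdia3, a disulfide isomerase, was higher in BALB/c without overlap, at 207 to 297.5 CPM in the BALB/c libraries and 5.35 to 163 CPM in the C57BL/6 libraries, and its log2 difference of 1.30 ± 0.88 (edgeR adjusted p = 0.954) came with a much lower value in C57BL/6 replicate 1 than in the other libraries. Calr had -0.29 ± 0.36 and Creb3l1, a transcription factor of secretory and collagen genes, had -0.61 ± 0.35. Of 4 tested procollagen processing genes 3 were below 0, and again 0 passed or had an unadjusted edgeR p under 0.05. Bmp1, the protease that removes the procollagen C-propeptide and also activates lysyl oxidase, had -0.37 ± 0.26, and Adamts14, an N-propeptidase, had -0.70 ± 0.51.

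Lox is the founding lysyl oxidase of fibrillar collagen and elastin. It lies on GRCm38 chromosome 18, 52516067 to 52529867, and like Plod2 it overlaps exons of another annotated gene on the opposite strand. Lox was at 756, 318 and 322 CPM in BALB/c replicates 1, 2 and 3 and at 100.1, 843 and 336 CPM in C57BL/6 replicates 1, 2 and 3. BALB/c replicate 1 and C57BL/6 replicate 2 were high, C57BL/6 replicate 1 was low, and the other libraries lay close together across strains. The highest library was 8.42 times the lowest, the widest range of the 10 genes. The estimate was 0.13 ± 0.72 (edgeR adjusted p = 0.983) and turned to -0.35 ± 0.52 without C57BL/6 replicate 1 and to -0.42 ± 0.78 without BALB/c replicate 1.

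Loxl1, which binds elastic fibres, lies on chromosome 9, 58287738 to 58313186. It was at 468, 163 and 286 CPM in the BALB/c libraries and at 293, 487 and 233 CPM in the C57BL/6 libraries, and the strains overlapped, differing by -0.14 ± 0.45 on the log2 scale (edgeR adjusted p = 0.969). Loxl2, which carries scavenger receptor domains and crosslinks basement membrane collagen IV, lies on chromosome 14, 69609068 to 69695834. It was at 393.5, 119.9 and 282 CPM in the BALB/c libraries and at 166.5, 637 and 251 CPM in the C57BL/6 libraries, and the strains overlapped, differing by -0.41 ± 0.60 on the log2 scale (edgeR adjusted p = 0.954). Its 3′ end shares stretches of up to 202 nt with transcripts of 119 other genes at 95% identity or more, so its count is uncertain. Loxl3, of the same domain build as Loxl2, lies on chromosome 6, 83034173 to 83052562. It was at 40.0, 10.4 and 24.2 CPM in the BALB/c libraries and at 16.8, 37.5 and 20.8 CPM in the C57BL/6 libraries, and the strains overlapped, differing by -0.02 ± 0.56 on the log2 scale (edgeR adjusted p = 0.998). The 3′ end of Loxl3 overlaps Htra2 on the opposite strand, and Htra2 was the more abundant, at 136 to 187 CPM in the BALB/c libraries and 129 to 239.9 CPM in the C57BL/6 libraries. In all 4 lysyl oxidases C57BL/6 replicate 2 and BALB/c replicate 1 were the highest libraries.

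The 5 lysyl oxidases together, with Loxl4, summed to 1676, 626 and 927 CPM in BALB/c replicates 1, 2 and 3 and to 588, 2022 and 856 CPM in C57BL/6 replicates 1, 2 and 3. This sum was high where the fibroblast marker sum was high and the luminal marker sum low, in BALB/c replicate 1 and C57BL/6 replicate 2. It was lowest in the libraries with the highest luminal marker sums in CPM, BALB/c replicate 2 and C57BL/6 replicate 1. The part of the culture make-up in these levels was not tested.

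Lox made up 45.1%, 50.8% and 34.8% of lysyl oxidase counts in BALB/c and 17%, 41.7% and 39.3% in C57BL/6. In C57BL/6 replicate 1 Loxl1 was the leading lysyl oxidase, with 49.9% of counts (exact 95% interval 46.3% to 53.5%), where it held 24.1% to 30.9% in the other libraries. Loxl4 held 1.07% to 2.29% in BALB/c and 0.889% to 1.95% in C57BL/6, and its log2 difference was 0.01 ± 0.38. The ratio of Loxl2 to Lox was 0.520, 0.377 and 0.874 in BALB/c and 1.66, 0.756 and 0.747 in C57BL/6, with overlap (exact two-sided permutation p = 0.3). The ratio of Tgm2 to Lox stood at 0.237, 0.573 and 0.703 in BALB/c and 4.7, 0.446 and 1.25 in C57BL/6, also with overlap (exact two-sided permutation p = 0.3). Both had an adjusted value of 0.933 over 7 ratios.

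**Figure D4:**
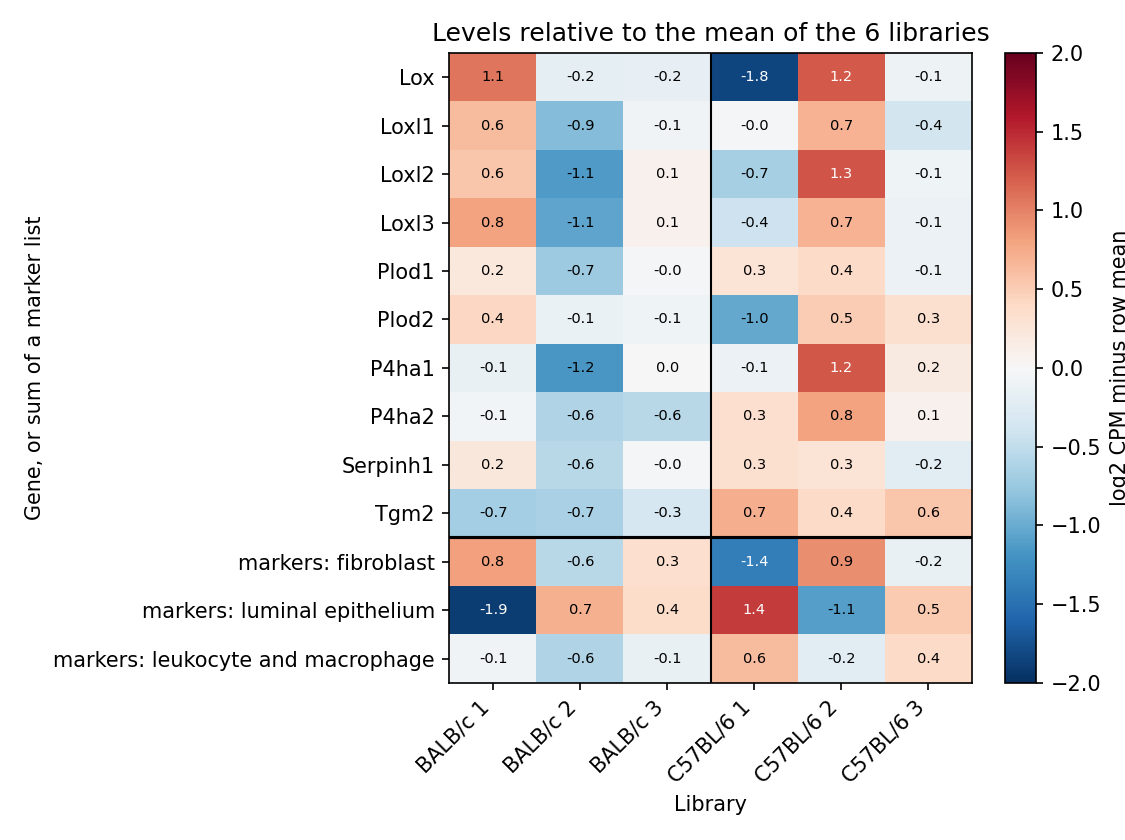
log2 CPM of the 10 genes and of 3 summed marker lists, each row relative to its own mean over the 6 libraries, with the number in each cell. The lysyl oxidases are high in BALB/c replicate 1 and C57BL/6 replicate 2, where luminal markers are low, whereas Tgm2 is below its mean in all 3 BALB/c libraries and above it in all 3 C57BL/6 libraries.

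BALB/c replicate 2 was the lowest library for 7 of the 10 genes, and C57BL/6 replicate 2 the highest for 7 of the 10. C57BL/6 replicate 1 was lowest for Lox and Plod2 and highest for Tgm2 and Serpinh1. Relative to the 3 fibrillar collagen genes, Lox was at 0.142, 0.295 and 0.0997 in BALB/c and at 0.120, 0.128 and 0.166 in C57BL/6, so that Lox and the collagens were low together in C57BL/6 replicate 1 (exact two-sided permutation p = 0.8 between the strains). Plod2 was at 0.0233, 0.0781 and 0.0271 of the collagens in BALB/c and at 0.0544, 0.0202 and 0.0571 in C57BL/6 (exact two-sided permutation p = 1).

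The substrates and partners of these enzymes had estimates of both signs. Of 13 tested collagen genes 8 were below 0, with a median of -0.04. None of the tools called any, and 2 had an unadjusted edgeR p under 0.05, against 3.86% of all tested genes (2.54% lower in BALB/c). These were the basement membrane chains Col4a1 and Col4a2, lower in BALB/c without overlap, at -1.09 ± 0.32 (edgeR adjusted p = 0.882) and -0.82 ± 0.31 (edgeR adjusted p = 0.954), whereas the fibrillar Col1a2 had -0.01 ± 0.83. Of 7 tested matrix partners of lysyl oxidases 3 were below 0 and 0 passed or had an unadjusted edgeR p under 0.05, with 0.65 ± 0.49 for Fn1, fibronectin, 0.69 ± 0.55 for Fbln1 and 0.10 ± 0.53 for Sparc, a collagen-binding glycoprotein.

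Hypoxia and TGF-beta are known inducers of several of the 10 genes. Of 17 tested hypoxia response genes 16 were below 0, with a median of -0.26, where 48.9% of all tested genes were, with a median of 0.01. With each tool 0 passed, and 0 had an unadjusted edgeR p under 0.05. Aldoa, a glycolytic enzyme, had -0.47 ± 0.25 without overlap and Ndrg1 had -0.79 ± 0.38 with overlap. Without C57BL/6 replicate 1, 15 of 19 tested were below 0, against 49.7% of all tested genes. This list was not recounted without the other libraries. Of 13 tested TGF-beta response genes 10 were below 0, with a median of -0.19, and 0 passed in edgeR. There 2, Cnn1 and Tagln, had an unadjusted p under 0.05, against 3.86% of all tested genes (2.54% lower in BALB/c). DESeq2 called 1, Cnn1. The contractile genes Cnn1 and Tagln had -1.25 ± 0.25 (edgeR adjusted p = 0.239) and -0.69 ± 0.28 (edgeR adjusted p = 0.954). The part of hypoxia or TGF-beta in the levels of the 10 genes was not tested.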

How the data were processed

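Fibroblast cultures of 6 samples were grouped by the strain in their labels. Raw gene counts were deposited by the authors as 1 table for the whole series. The tools named in the submitters' processing notes are STAR 2.4.2a, HTSeq and bcl2fastq, and the build is mm10, while the sources used here give none of their settings. No gene in the table stays under 6 counts in all libraries. The build is a C57BL/6 genome, so BALB/c reads carrying other alleles may align less often.

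Counts were tested with edgeR 4.0.16 (R 4.3.3, limma 3.58.1) after filterByExpr and TMM scaling (factors 0.866 to 1.06), with a robust quasi-likelihood fit of strain, two-sided, adjusted by Benjamini-Hochberg over 8752 genes. The test was tried on simulated counts. Standard errors are the size of the log2 difference over the square root of F. Ratios had 0.5 counts added and, like shares, were compared by exact permutation. The alternatives were DESeq2 1.42.0, limma-voom, other scalings and filters, a replicate block and leaving out each library. The labels do not say whether replicates came from separate mice, so the p-values measure only the spread between these samples, which may be technical. Pairs of libraries of a strain differed beyond sampling noise (chi-square per degree of freedom 10.8 to 57.2).

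The members and lists were chosen with earlier results of these data known. From each other list the genes past the threshold were named, or else the lowest 2 by p and the most abundant, and genes named beyond this rule were chosen after their values were seen. Some genes that the rule names are not reported here. Loci are from GENCODE vM21 on GRCm38, the assembly of mm10, and promoters, matched for 4 of 10 genes, from RefSeq. BLAST+ 2.17.0 searched the last 500 nt of coding transcripts for matches of at least 60 nt at 95% identity.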

Additional observations from a re-analysis of the deposited data

How the results depend on the processing

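Of the 10 genes, Tgm2, Plod1, P4ha2 and Serpinh1 kept the sign of their difference in all 14 alternatives, and P4ha1 in the 12 in which it could be tested, at -1.32 to -0.52. In 2 of the 14 Tgm2 passed the threshold over all genes, with -1.12 ± 0.25 in DESeq2 and -1.03 ± 0.15 in limma-voom with quality weights, which weighted C57BL/6 replicate 1 by 0.157 and C57BL/6 replicate 3 by 3.35. The count of the 10 past the threshold was therefore 1 with each of these tools and 0 in the other alternatives. The range of the log2 difference of Tgm2 was -1.23 to -1.03, with adjusted p of 0.00125 to 1, and that of P4ha2 -1.02 to -0.59, with adjusted p of 0.271 to 1. The sign was not stable in Lox (-0.42 to 1.08 when a library was left out), Loxl1 (-0.59 to 0.23), Loxl2 (-0.82 to 0.34), Loxl3 (-0.57 to 0.38) and Plod2 (-0.34 to 0.28). It also turned to 0.05 for Loxl3 with library totals alone, and to 0.02 for Loxl1 and -0.30 for Plod2 with quality weights. Over all genes 18 passed, 6 higher and 12 lower, against 11 (5 and 6) with library totals alone, 71 (25 and 46) in DESeq2, 3 in limma-voom, 57 (25 and 32) with quality weights and 0 to 25 when a library was left out. Leaving out C57BL/6 replicate 1 gave 25, C57BL/6 replicate 2 gave 5 and BALB/c replicate 1 gave 4. The count was 0 when BALB/c replicate 2 was left out (205 genes at an unadjusted p under 0.05), as for BALB/c replicate 3 (226) and C57BL/6 replicate 3 (261). Deviations from the strain mean correlated at -0.419, -0.397 and -0.077 between same-numbered libraries and at -0.328 to 0.581 between the others. Such deviations cancel within a strain, so these values cannot show whether same-numbered libraries were prepared together. The replicate block called 0 genes, with 158 at an unadjusted p under 0.05. Of the 7 ratios, 5 changed sign when a library was left out, and Loxl2 to Lox and Tgm2 to Lox did not: without BALB/c replicate 2, Lox to collagens was -0.20 and P4ha2 to P4ha1 -0.20, and without C57BL/6 replicate 1, Plod2 to Plod1 was -0.03, Plod2 to collagens 0.11 and Serpinh1 to collagens 0.31. Of the 11 shares, 2 were recomputed. The strain difference in the P4ha3 share was 5.87 to 8.16 percentage points and in the P4ha2 share -8.17 to -5.54 when a library was left out. A mean of at least 50 counts left out Loxl3 and P4ha1. At 3 counts the libraries reach 0.612 to 2.90 CPM, and P4ha1, with 7 to 38 counts, was nearest to this among the 10.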
